A study of Mus musculus with 2 samples.

Results

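Interferon receptors, the kinases and factors they signal through, sensors of viral RNA and interferon-induced antiviral effectors were described in mouse megakaryocytes, the cells that release platelets. The 37 genes were taken from a list by symbol, with 4 receptors, 9 signalling genes and interferon regulatory factors (IRFs), 4 RNA sensors and 20 effectors. All 37 were matched among the 43346 Ensembl genes of the deposited tables, and all were kept whatever their level. The study sequenced polyadenylated RNA of primary megakaryocytes from mouse embryos of age 14.5 days, male and female pooled, in 2 libraries. The strain, genotype, treatment or purity of the cells is not given in the sources used here, and both libraries carry replicate numbers of 1 group. They cite 1 biosample and 1 donor, so the difference between them may be technical in part. With no second group, no condition was compared and no test was made.

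Interferons are secreted proteins that cells release on sensing viral nucleic acid. Type I interferons bind a receptor of the chains IFNAR1 and IFNAR2, and interferon gamma binds IFNGR1 with IFNGR2. The receptors signal through kinases, JAK1 and TYK2 or JAK2. STAT2 and IRF9 act in the complex ISGF3, which binds the interferon-stimulated response element (ISRE) of its target genes, and many targets of interferon gamma carry a gamma-activated site (GAS). Megakaryocytes and platelets are known to carry interferon-induced antiviral proteins, IFITM3 among them.

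Replicate 1 held 42099216 expected counts (estimated fragments per gene) and replicate 2 held 2275922, so replicate 1 was 18.5-fold deeper. Where a gene had 0 counts, up to 3 counts remain possible. As CPM, the count over the library's total in a common scale, this is 0.0713 for replicate 1 and 1.32 for replicate 2. All 14 megakaryocyte markers reached a mean TPM (transcript level scaled to length and depth) of at least 1. Their sums were 18984 and 28157 TPM in replicates 1 and 2, led by mean TPM by Gp1bb and Gp9, both subunits of the von Willebrand factor receptor. Markers of macrophages, granulocytes and erythroid cells differed between the libraries. The 13 macrophage markers summed to 875 TPM and 229 TPM, with 7 of 13 at a mean TPM of at least 1, C1qc and C1qb highest, and Cd163, Timd4 and Spic at 0 in both. The 11 granulocyte markers summed to 879 TPM and 151 TPM, with 10 of 11 at that level and Prtn3 and Mpo highest. The 9 erythroid markers summed to 6941 TPM and 13729 TPM, led by Hba-a1 and Hbb-bt. Hba-a1 was higher in replicate 2, at 4480 TPM and 12715 TPM, and Hbb-bt lower, at 1719 TPM and 513 TPM. Hepatocyte markers summed to 94.4 TPM and 71.7 TPM, and endothelial markers to 34.1 TPM and 51.7 TPM. Lymphoid markers summed to 8.73 TPM and 4.79 TPM, and stromal markers to 3.51 TPM and 2.61 TPM.

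The promoters of the members were searched for the letters of these response elements. RefSeq windows on GRCm38.p6, from 250 bases before to 50 bases after a gene's start, were given for 31 of the 37 members, in 38 windows. Dhx58, Usp18, Mx1, Mx2, Oas2 and Ifi27 had none in the table. The ISRE core was searched on both strands as GAAA, any 2 bases, GAAA. It was in 13 of 31 members (41.9%) and in 34.2% of their windows, against 3.44% of all 32851 windows. The GAS was searched as TTCNNNGAA, which reads alike on both strands, and was in 11 of 31 members, or 28.9% of windows, against 8.30% of all. By role, the ISRE core was in 0 of 4 receptors, 2 of 9 signalling genes and IRFs, 3 of 3 sensors and 8 of 15 effectors. A match is a description of letters and not of binding.

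The stretches below are upstream of the RefSeq start, given 5′ to 3′ on the gene's strand. Capitals mark the ISRE core, or in Irf1 the GAS. The first 5 are of effectors whose levels are given further on and which hold the ISRE core in different numbers and spacing.
Isg15, chr4:156200855-156200974, minus strand: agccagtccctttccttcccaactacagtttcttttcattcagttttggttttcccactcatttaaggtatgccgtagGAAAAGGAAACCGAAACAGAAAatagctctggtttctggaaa
Bst2, chr8:71537567-71537686, minus strand: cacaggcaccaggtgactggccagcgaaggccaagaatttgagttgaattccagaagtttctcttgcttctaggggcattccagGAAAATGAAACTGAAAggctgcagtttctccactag
Ifit1, chr19:34640714-34640833, plus strand: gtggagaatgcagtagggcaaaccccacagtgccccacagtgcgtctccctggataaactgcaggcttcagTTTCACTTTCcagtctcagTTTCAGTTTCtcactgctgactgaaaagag
Ifit3, chr19:34583317-34583436, plus strand: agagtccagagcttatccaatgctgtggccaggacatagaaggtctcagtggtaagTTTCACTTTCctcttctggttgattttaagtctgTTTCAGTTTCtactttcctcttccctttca
Ifitm2, chr7:140955978-140956097, minus strand: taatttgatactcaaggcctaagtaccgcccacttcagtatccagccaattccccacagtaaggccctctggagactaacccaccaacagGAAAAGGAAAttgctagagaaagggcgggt
In Isg15 the core occurred 3 times with overlaps, beginning 78, 72 and 66 bases before the start. In Bst2 it occurred in 2 overlapping copies at 130 and 124 bases, and a GAS at 136 bases is not marked. Ifit1 and Ifit3, both on chromosome 19, each had 2 separate copies, at 104 and 85 bases and at 156 and 122 bases. Ifitm2 had 1 copy, 46 bases before its start. The next 5 stretches are of Stat2, of 2 IRFs and of 2 effectors whose ratios lay within 2-fold. The capitals of Irf1 mark a GAS, and those of the others an ISRE core.
Stat2, chr10:128270248-128270305, plus strand: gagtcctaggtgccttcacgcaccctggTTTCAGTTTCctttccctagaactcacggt
Irf2, chr8:46739495-46739533, plus strand: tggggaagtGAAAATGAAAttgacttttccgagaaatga
Oas3, chr5:120777705-120777824, minus strand: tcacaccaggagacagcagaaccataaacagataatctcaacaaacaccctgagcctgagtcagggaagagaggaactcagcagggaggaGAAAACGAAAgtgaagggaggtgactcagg
Rsad2, chr12:26456543-26456662, minus strand: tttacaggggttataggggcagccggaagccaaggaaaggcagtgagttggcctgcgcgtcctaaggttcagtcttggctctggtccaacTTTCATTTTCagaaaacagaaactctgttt
Irf1, chr11:53769833-53769952, plus strand: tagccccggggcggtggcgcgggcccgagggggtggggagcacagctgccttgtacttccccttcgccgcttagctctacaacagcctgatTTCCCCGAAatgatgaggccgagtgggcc
Irf1, known as a gene induced by interferon gamma, held a GAS 90 bases before its start and no ISRE core in its 2 windows. Irf2 held an ISRE core at 241 bases and a GAS, not marked, at 224 bases. In Ddx58, Ifih1, Eif2ak2 and Ifitm3 the ISRE core lay after the start and is not printed. The median of mean TPM was 4.04 for the 13 with it and 11.5 for the 18 without it.

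Across all 37 members, 29 reached a mean TPM of at least 1 over the 2 libraries, the level used here for a detected gene. Over all genes the share was 22.7%, and over protein coding genes it was 42.5%. At least 1 TPM was found for 30 members in replicate 1, for 23 in replicate 2 and for 22 in both. Mx2 was the 1 member at that level in replicate 2 alone. Counts were 0 for 2 members in replicate 1 and for 10 in replicate 2, Irf4 and Ifi44 being at 0 in both. The median member was at 7.11 TPM in the first and 2.13 TPM in the second library.

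**Figure D1:**
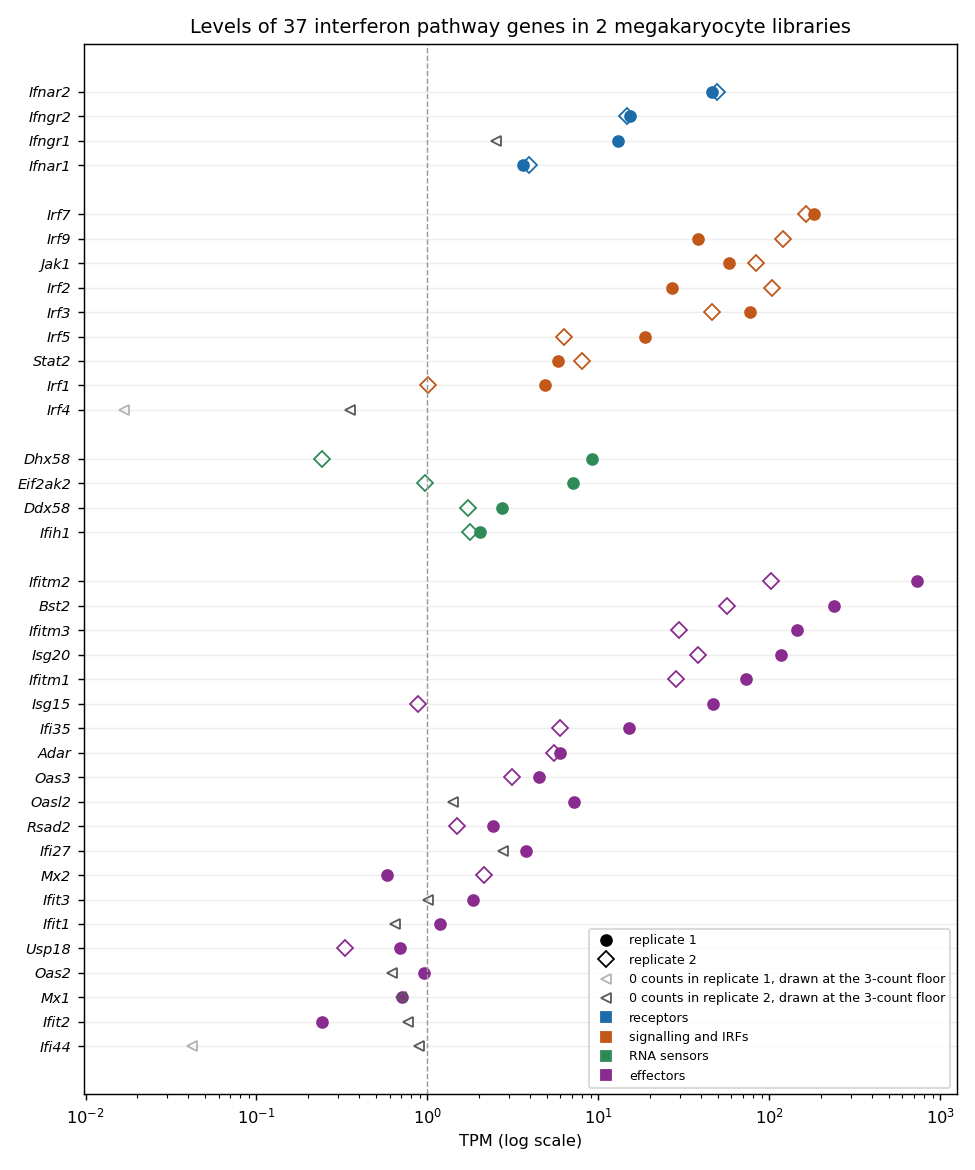
TPM of each member (log scale) in replicate 1 (filled circles) and replicate 2 (open diamonds), by role, with the dashed line at 1 TPM. Members with 0 counts are drawn as triangles at the level that 3 counts would give. Among signalling genes and IRFs Irf7 is highest, at 181 TPM and 165 TPM, while most effectors lie lower in replicate 2 than in replicate 1.

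Ratios of replicate 2 to replicate 1 below are of expected counts scaled by TMM factors. They compare 2 libraries, have no replicate check, and carry exact 95% intervals (Clopper-Pearson, on the summed count) that cover counting error only. Of the 26 members at a mean count of 100 or more, 13 were lower in replicate 2 by 2-fold or more, where 33.8% of all such genes were. A further 2 were higher by 2-fold or more, where 15.7% of all were, and 11 lay within 2-fold. For 9 of the 13 and for both of the 2 the whole interval lay beyond 2-fold. The share of all genes with such an interval was not counted, so these numbers have no background here. At a mean of 5 CPM or more, 10 of 22 members were lower and 2 higher, against 28.1% and 19% of all. The median log2 ratio was -1.12 over the 35 members with a mean count of at least 10, and -0.52 over all genes.

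**Figure D2:**
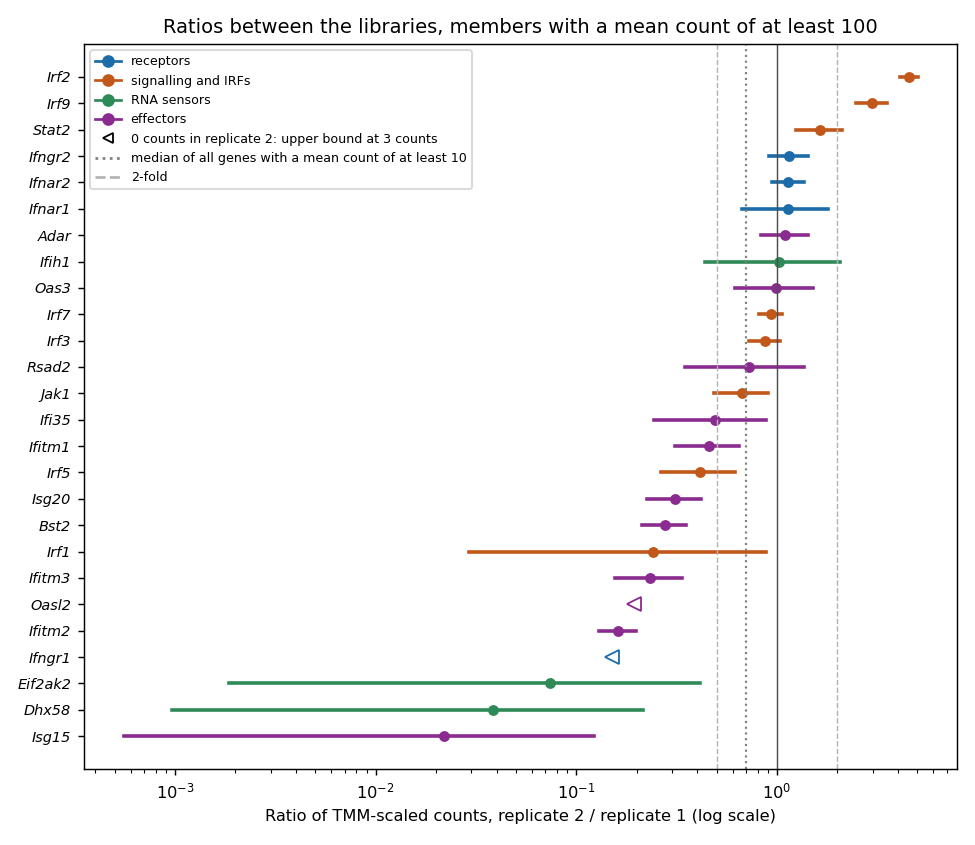
Ratio of TMM-scaled counts, replicate 2 over replicate 1 (log scale), for the 26 members with a mean count of at least 100, with bars for exact 95% counting intervals. Irf2 and Irf9 lie above 2-fold, and triangles mark Ifngr1 and Oasl2, whose 0 counts in replicate 2 are set at the floor of 3 counts.

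Both chains of the type I receptor and the IFNGR2 chain were expressed at like levels in the 2 libraries, while the IFNGR1 chain was read in replicate 1 alone. Ifnar2, which holds the high-affinity site for type I interferon, stood at 46.4 TPM in the first and 49.6 TPM in the second library. Most of this was on Ifnar2-204, of 807 bases and annotated as incomplete at its end, at 28.0 TPM and 33.9 TPM. The longer coding Ifnar2-201 held 17.6 TPM and 15.7 TPM. On the same strand, Gm21970 shares 315 exonic bases with Ifnar2. Ifnar1, the signalling partner of Ifnar2, stood at 3.63 TPM and 3.90 TPM. Ifngr2, the accessory chain for interferon gamma, stood at 15.3 TPM and 14.7 TPM. These 3 genes lie within 1 stretch of chromosome 16, between positions 91372783 and 91565623 on mm10. Their scaled ratios were 1.14 (0.945 to 1.36) for Ifnar2, 1.13 (0.673 to 1.78) for Ifnar1 and 1.14 (0.908 to 1.42) for Ifngr2.

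Ifngr1, the ligand-binding chain for interferon gamma, stood apart from the other 3 receptor genes. It had 502 counts (12.9 TPM) in replicate 1 and 0 counts in replicate 2, where 3 counts would be 2.52 TPM. Of its TPM in replicate 1, 58.8% was on Ifngr1-203, a transcript that GENCODE M21 types as a target of nonsense-mediated decay. By counts most was on the coding Ifngr1-201, with 413 against 89.0 for Ifngr1-203. Ifngr1-203 was counted with 433 bases, while its model in GENCODE M21 has 1974 bases. About 20.03 counts would have been read in replicate 2 at the scaled level of replicate 1, 6.68-fold over the floor of 3 counts. The ratio of Ifngr1 had an interval of 0 to 0.185. The authors' posterior mean for Ifngr1 in replicate 2, an estimate that a prior keeps above 0, was 6.37 TPM. Of all genes at a mean count of 100 or more, 4.48% had 0 counts in replicate 2.

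Signalling genes and IRFs formed the role with the highest median, 26.9 TPM in the first and 46.4 TPM in the second library, and 8 of 9 were detected. The role summed to 412 TPM and 533 TPM. Irf7, the master factor of type I interferon induction, had the highest TPM of the role, 181 and 165. Its ratio of 0.930 (0.817 to 1.05) lay within 2-fold. Irf3, the constitutive factor that sensors activate first, stood at 77.0 TPM and 46.4 TPM, with a ratio of 0.870 (0.722 to 1.04).

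Irf2 and Irf9 were the members with the highest ratios of the 26. Irf2, which represses many targets of IRF1, had 2482 counts (26.9 TPM) in replicate 1 and 450 counts (104 TPM) in replicate 2. Its scaled ratio was 4.54 (4.10 to 5.03), and by TPM it was the 3226th gene of replicate 1 and the 1195th of replicate 2. Irf9, the DNA-binding part of ISGF3, had 1227 counts (38.4 TPM) and 145 counts (120 TPM), a ratio of 2.96 (2.48 to 3.52). Stat2, which acts with IRF9 in that complex, stood at 5.80 TPM and 7.99 TPM, and its ratio of 1.63 (1.24 to 2.11) did not pass 2-fold.

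Irf1 and Irf5 were on the lower side. Irf1, an activator of antiviral and interferon gamma targets, had 207 counts (4.87 TPM) in replicate 1 and 2 counts (1.01 TPM) in replicate 2. Its ratio of 0.242 had a wide interval, 0.0291 to 0.886. Irf5, a factor of myeloid cells downstream of Toll-like receptors, stood at 18.8 TPM and 6.33 TPM, with a ratio of 0.412 (0.263 to 0.616). For neither did the whole interval lie beyond 2-fold, and Irf5 shares 411 exonic bases with Tnpo3 on the opposite strand. Irf4, a factor of lymphocytes and dendritic cells, had 0 counts in both libraries, where 3 counts would be 0.0167 TPM and 0.354 TPM.

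Jak1, the kinase shared by both receptors, differed between the libraries in opposite directions by TPM and by counts. Its TPM was 58.2 in replicate 1 and 83.0 in replicate 2, while its scaled counts were lower in replicate 2, with 1610 and 43 counts and a ratio of 0.669 (0.483 to 0.906). Scaled by total counts it was 0.494, past 2-fold. The TPM of replicate 2 came almost all from 1 short transcript. Jak1-202, of 374 bases and typed as a processed transcript with no coding sequence in GENCODE M21, held 33.1 TPM and 82.0 TPM, on 311 and 34.5 expected counts. The full-length coding Jak1-201, of 4906 bases, held 5.10 TPM and 0.96 TPM on 955 and 8.47 counts. Effective length enters TPM, and for Jak1 it was 705 bases in replicate 1 and 279 bases in replicate 2.

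In Irf9 and Irf7, too, a short transcript held most of the TPM, though that of Irf7 is typed as protein coding. Irf9-201, a retained-intron transcript of 630 bases, held 32.7 TPM and 108 TPM, whereas its coding transcripts summed to 5.55 TPM and 11.6 TPM. The exons of Irf9 share 123 bases on the same strand with Rnf31. For Irf7, a 751-base fragment (Irf7-204, annotated as incomplete at both ends) held 119 TPM and 129 TPM. The full Irf7-201 held 48.7 TPM and 12.8 TPM, a scaled ratio of 0.310 on 3404 and 42.2 counts. A second long coding transcript, Irf7-202, held 7.62 TPM and 23.2 TPM, a ratio of 3.59 on 487 and 69.8 counts. Together these 2 had a ratio of 0.721, within 2-fold like the gene. Irf2 had 1 expressed transcript, coding, so its level did not depend on such a split. For Irf3 the main transcript, of 1641 bases, at 41.9 TPM and 26.9 TPM, had no entry in GENCODE M21. With transcripts typed as non-coding left out, the role's median of mean TPM was 8.59 in place of 61.7, below that of the receptors (9.11 by the same choice), so the role no longer ranked first.

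**Figure D3:**
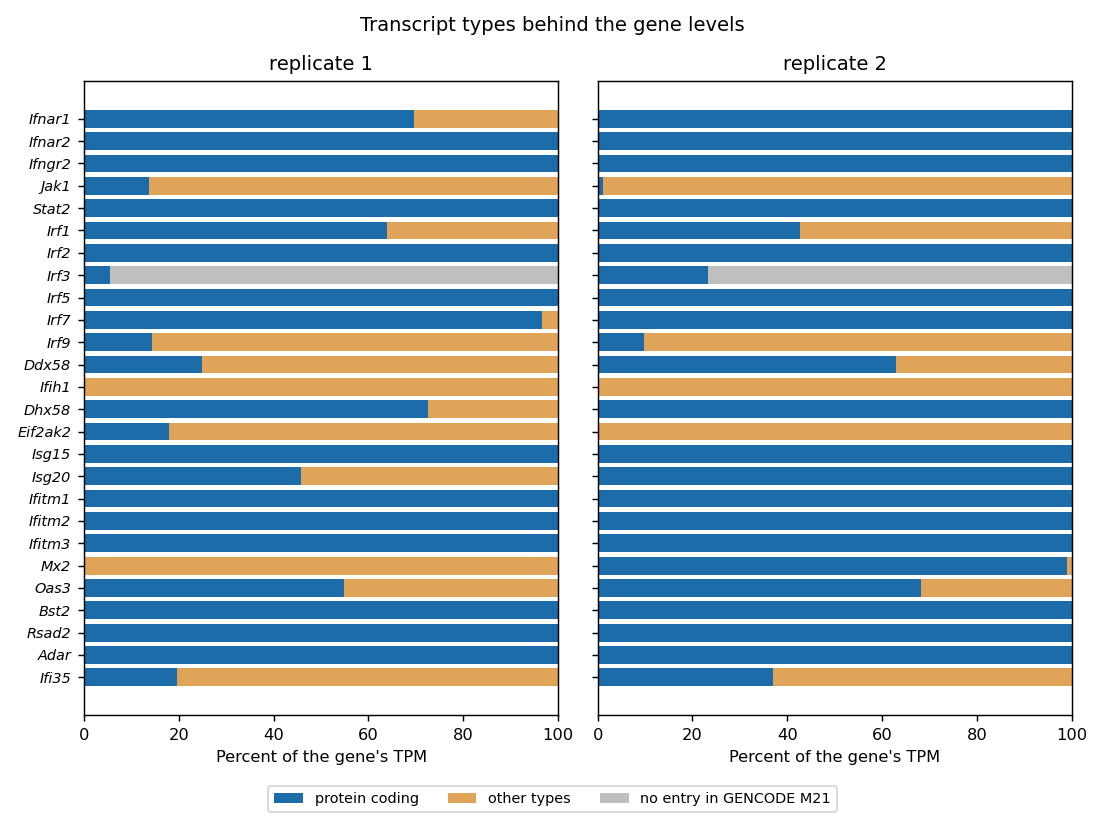
Percent of each gene's TPM that came from protein coding transcripts, from transcripts of other types and from transcripts with no entry in GENCODE M21, in replicate 1 (left) and replicate 2 (right), for members with a mean TPM of at least 1 and counts in both libraries. Coding transcripts held 13.6% and 1.16% of the level of Jak1, 14.4% and 9.68% of that of Irf9, and 0% of that of Ifih1.

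Among the members, 21 had at least 2 annotated transcripts, counts in both libraries and a mean TPM of at least 1. The same transcript led in both libraries for 17 of them, where it did for 62.3% of 6577 genes. The exceptions were Ddx58, Irf1, Isg20 and Mx2, with 8, 2, 44 and 9 counts in replicate 2. Some of the 17 also had few counts there, with 1 for Dhx58 and Eif2ak2, 8 for Ifih1 and 10 for Rsad2. By posterior means the same transcript led for 13 of 21, against 56.9% of all genes.

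The RNA sensors were low, with a median of 4.92 TPM in the first and 1.35 TPM in the second library. All 4 were detected by their mean. Ddx58, which encodes RIG-I, a sensor of short RNA with a triphosphate end, stood at 2.73 TPM and 1.72 TPM, from 182 and 8 counts. Ifih1, which encodes MDA5, a sensor of long double-stranded RNA, stood at 2.04 TPM and 1.78 TPM, from 196 and 8 counts. Their ratios of 1.10 (0.469 to 2.22) and 1.02 (0.436 to 2.06) lay near 1 with intervals that reach past 2-fold on both sides. With the trend of ratio on GC content removed, the ratio of Ifih1 was 1.74.

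The other two sensors had 1 count each in replicate 2. Dhx58, which encodes LGP2, a regulator of RIG-I and MDA5, had 656 counts (9.20 TPM) in replicate 1 and 1 count (0.24 TPM) in replicate 2, a ratio of 0.0382 (0.000966 to 0.214). Eif2ak2, which encodes PKR, a kinase that stops translation on double-stranded RNA, had 339 counts (7.11 TPM) and 1 count (0.97 TPM), a ratio of 0.0739 (0.00187 to 0.415), or 0.118 with the same trend removed. Both intervals lay beyond 2-fold.

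By TPM, much of the sensors' level came from transcripts without a full coding sequence. Ifih1 had 0 counts on coding transcripts in both libraries, and its level came from retained-intron transcripts, Ifih1-203 holding 1.94 TPM and 1.78 TPM. Eif2ak2-204, also a retained-intron transcript, held 5.68 TPM and 0.97 TPM, against 1.28 TPM and 0 for the coding Eif2ak2-201. By counts the order in replicate 1 was reversed, with 127 on Eif2ak2-204 (704 bases) and 210 on Eif2ak2-201 (4313 bases). In replicate 2 the level of Eif2ak2-204 rested on 1 count. Ddx58 had 0.68 TPM and 1.09 TPM on coding transcripts. Dhx58 differed from these, with 72.6% of its level in replicate 1 on the coding Dhx58-201. Without transcripts typed as non-coding, the median of mean TPM over the 4 sensors was 0.763 in place of 3.13.

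The effectors held 73.2% of the summed TPM of all members in replicate 1 and 31.2% in replicate 2. They were the role with the lowest ratio, 0.280 over the summed scaled counts. Of the 20, 13 were detected by their mean, 14 reached 1 TPM in replicate 1 and 10 in replicate 2. Of the 11 at a mean count of 100 or more, 8 were lower by 2-fold or more in replicate 2 and 0 higher. Over all such genes, 33.8% were lower and 15.7% higher. With the trend of ratio on gene length removed, 5 of 11 were lower and 0 higher, against 33.2% and 15.4% of all. Adar, Oas3 and Rsad2 were the 3 within 2-fold.

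**Figure D4:**
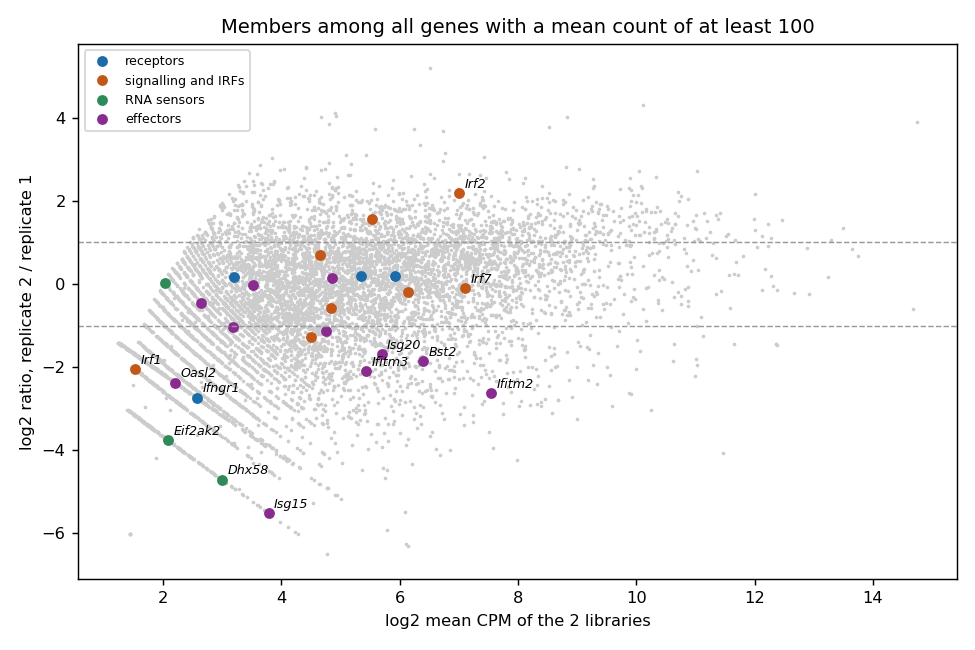
Log2 ratio of replicate 2 to replicate 1 against log2 mean CPM for all 8194 genes at a mean count of 100 or more (grey), with members coloured by role and dashed lines at 2-fold. Genes with 0 counts in replicate 2 are set at 3 counts. Effectors lie mostly below the lower line, and Irf2 and Irf9 lie above the upper one.

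Membrane proteins that block virus entry or release were among the most abundant effectors. Ifitm1, Ifitm2 and Ifitm3, which stop fusion of viruses with the cell's membranes, together held 950 TPM in the first and 159.9 TPM in the second library, or 68.0% and 58.3% of all effector TPM. Ifitm2 had 14114 counts (731 TPM) and 91 counts (102 TPM), a ratio of 0.162 (0.130 to 0.199). Ifitm3 had 3105 counts (146 TPM) and 29 counts (29.4 TPM), a ratio of 0.234 (0.157 to 0.337). Ifitm1 had 1703 counts (73.2 TPM) and 31 counts (28.4 TPM), a ratio of 0.456 whose interval, 0.309 to 0.650, reached past 2-fold. With the trend of ratio on gene length removed, the ratios were 0.347 for Ifitm2, 0.477 for Ifitm3 and 0.756 for Ifitm1, which then lay within 2-fold, as it did (0.514) with a GC trend removed. By TPM the order Ifitm2, Ifitm3, Ifitm1 held in both libraries, though Ifitm3 and Ifitm1 were close in replicate 2. The genes lie close together, with short, alike transcripts, on chromosome 7 between positions 140954837 and 141010770, and 268 of the 655 exonic bases of Ifitm2 are shared with Gm45717 on the same strand.

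Bst2, which encodes tetherin, a protein that holds budding virus at the surface, had 5910 counts (240 TPM) in replicate 1 and 65 counts (56.8 TPM) in replicate 2. Its ratio was 0.276 (0.212 to 0.352), and 0.511, no longer past 2-fold, with the trend of ratio on gene length removed. Bst2 was thus the second member by TPM in replicate 1, after Ifitm2, and lay in the 602nd place among all genes.

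Isg15 and Isg20 were high in replicate 1. Isg15, a ubiquitin-like protein that is joined to other proteins, had 1143 counts (46.9 TPM) in replicate 1 and 1 count (0.88 TPM) in replicate 2. Its ratio of 0.0219 (0.000555 to 0.122) was the lowest among the members with counts in both libraries, and 0.0410 with the trend of ratio on gene length removed. Usp18, the protease that removes ISG15 and dampens receptor signalling, had 44 counts (0.69 TPM) and 1 count (0.33 TPM), too few for a ratio of use. Isg20, an RNA exonuclease, had 3555 counts (116 TPM) and 44 counts (38.5 TPM), a ratio of 0.310 (0.225 to 0.417). Its transcripts differed between the libraries. The retained-intron Isg20-205 held 63.1 TPM in replicate 1 and 0 in replicate 2, and the coding Isg20-202 held 0 and 30.7 TPM on 31.0 expected counts.

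Cytosolic RNA-binding effectors were near or under detection. Ifit1, which binds the end of viral RNA, had 117 counts (1.18 TPM) in replicate 1 and Ifit3, its partner, also 117 counts (1.85 TPM), and both had 0 in replicate 2. At the floor of 3 counts each would be 1.55-fold lower there, and each ratio had an interval of 0 to 0.803. Ifit2 had 35 counts (0.24 TPM) and 0 counts, where depth allows no fold. Counts of Ifit1 and Ifit3 were not whole in replicate 1, so part of their reads was divided with other genes and both values are uncertain.

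Oligoadenylate synthetases, which make the signal for RNase L, had unlike ratios. Oas3 had 557 counts (4.49 TPM) and 22 counts (3.11 TPM), a ratio of 0.990 (0.615 to 1.51). Oas2 had 122 counts (0.95 TPM) in replicate 1 and 0 in replicate 2, 1.62-fold lower at the floor of 3 counts. The interval of its ratio was 0 to 0.769. Oasl2, a synthetase-like protein, had 389 counts (7.21 TPM) and 0 counts, 5.17-fold lower at that floor. The interval of its ratio was 0 to 0.239. Oas2 and Oas3 are neighbours on chromosome 5.

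The remaining effectors spanned the range from detected to absent. Rsad2, which encodes viperin, an enzyme that makes a chain-terminating nucleotide, had 344 counts (2.41 TPM) and 10 counts (1.48 TPM), a ratio of 0.729 (0.346 to 1.36), which was 1.14 with the trend of ratio on GC content removed. Ifi35 had 562 counts (15.1 TPM) and 11 counts (5.93 TPM), a ratio of 0.491 (0.244 to 0.885) that lay within 2-fold by DESeq2 size factors (0.537), and 80.4% of its level in replicate 1 was on a transcript typed as a target of nonsense-mediated decay. Ifi27 had 76 counts (3.75 TPM) and 0 counts, where 3 counts would be 2.78 TPM. Ifi44 had 0 counts in both libraries, and 3 counts would be 0.0418 TPM and 0.889 TPM.

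Adar, which edits adenosine in double-stranded RNA, differed from most effectors in its even level, 5.94 TPM in the first and 5.51 TPM in the second library, a ratio of 1.10 (0.834 to 1.43). It has a short constitutive protein form and a long interferon-inducible one. Adar-202, with 2790 coding bases, held 4.55 TPM and 5.51 TPM. Adar-203, with 3534 coding bases, held 1.39 TPM (314 expected counts, 23.4% of the gene) and 0. The transcripts share most of their sequence, and the split between them is the authors' estimate. On the opposite strand, Chrnb2 shares 1365 exonic bases with Adar, and whether counting used strand is not given in the sources used here.

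Mx1 and Mx2, dynamin-like GTPases that act on influenza and other viruses, are transcribed pseudogenes in RefSeq's mouse assembly. GENCODE M21 types Mx1 as protein coding and Mx2 as a polymorphic pseudogene. Mx1 had 73 counts (0.71 TPM) in replicate 1 and 0 in replicate 2. Mx2 had 52 counts (0.58 TPM) and 9 counts (2.13 TPM), a ratio of 4.34 (1.88 to 8.88) at a mean count under 100. The reads lay mostly on different transcripts, Mx2-202 in replicate 1 and Mx2-201, typed as protein coding, in replicate 2.

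Other genes of the pathway, from lists of the same biology, were described by counts. None of 21 interferon ligands reached a mean TPM of 1, and 20 had 0 counts in both libraries. The exception was Ifnab, with 0 and 2 counts. For the 20, 3 counts would be 0.0576 to 0.180 TPM in replicate 1 and 1.23 to 3.91 TPM in replicate 2. Levels below that floor cannot be told from 0. Of 6 other receptors, kinases and factors, 4 were detected. At a mean count of 100 or more, 3 of 4 were lower in replicate 2, where 33.8% of all such genes were. Irf8 (40.8 TPM and 21.4 TPM), Tyk2 (16.4 and 16.0) and Il10rb (12.6 and 2.04) were the highest of that list.

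Of 13 other sensors and adaptors, 9 were detected, and of 9 at a mean count of 100 or more, 3 were lower and 3 higher. Over all genes at that count, 33.8% were lower and 15.7% higher. Trim25, the ligase that activates RIG-I, stood at 5.66 TPM and 58.8 TPM, Myd88 at 35.0 TPM and 18.1 TPM, and Ticam1 at 13.2 TPM and 28.0 TPM. Their scaled count ratios were 3.52 (2.94 to 4.18), 0.863 (0.658 to 1.11) and 2.51 (2.10 to 2.97). All 5 negative regulators were read in both libraries, and 4 were detected by their mean. Socs3 stood at 72.5 TPM and 56.4 TPM, Socs1 at 27.3 TPM and 85.8 TPM, and Ptpn6 at 19.4 TPM and 20.2 TPM. By scaled counts 1 was lower, Ptpn6 with a ratio of 0.347 (0.217 to 0.527), and 1 higher, Socs1 with 3.69 (3.12 to 4.33). Of 54 other interferon-induced genes, 22 were detected, and of 19 at a mean count of 100 or more, 10 were lower in replicate 2 and 0 higher. Lgals3bp (217 and 89.5 TPM), Lgals9 (36.7 and 30.6) and Pml (27.3 and 30.5) led that list. Gbp5 and Gbp6 are not analysed here.

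The lower effector levels of replicate 2 stood beside lower myeloid markers and a length trend. All 8 macrophage and all 8 granulocyte markers at a mean count of 100 or more were lower in replicate 2 by 2-fold or more. Summed over each whole list, scaled counts had ratios of 0.276 and 0.158, against 0.280 for the effectors and 1.96 for the megakaryocyte markers. For the other marker lists these ratios were 0.352 (dendritic), 0.760 (lymphoid), 0.919 (stromal), 0.975 (hepatocyte), 1.40 (endothelial) and 1.98 (erythroid). Of the 14 megakaryocyte markers, all at that count, 2 were lower, Pf4 at 0.249 and Ppbp at 0.460, and 5 were higher. Over all genes at that count, 33.8% were lower and 15.7% higher. The 9 markers of dendritic cells summed to 12.9 TPM and 2.89 TPM, with Tcf4 and Flt3 highest, and with Ccr9, Cd209a, Klk1 and Xcr1 at 0 in both. In bulk RNA, fewer cells of a type and less RNA per cell cannot be told apart. The part of other cell types in the members' ratios was not tested.

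Genes whose longest transcript was at most 1500 bases had a median log2 ratio of -0.84 (1332 genes), against -0.20 for 6862 longer genes. Among the members the medians were -1.85 for 7 short genes, which include Isg15, Bst2 and the 3 Ifitm genes, and -0.10 for 19 longer ones. With the length trend over all genes removed, 10 of the 26 members were at least 2-fold lower and 2 higher, where 33.2% and 15.4% of all genes were. The 3 members that no longer passed were the effectors Ifitm1, Bst2 and Ifi35, and the members that moved by more than 1.5 times were Isg15, Bst2 and the 3 Ifitm genes. By ISRE core, 5 of 10 members with it and 7 of 15 without it were lower at a mean count of at least 100. In each set 1 was higher. Over all genes at that count, without the trend removed, 33.8% were lower and 15.7% higher.

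**Figure D5:**
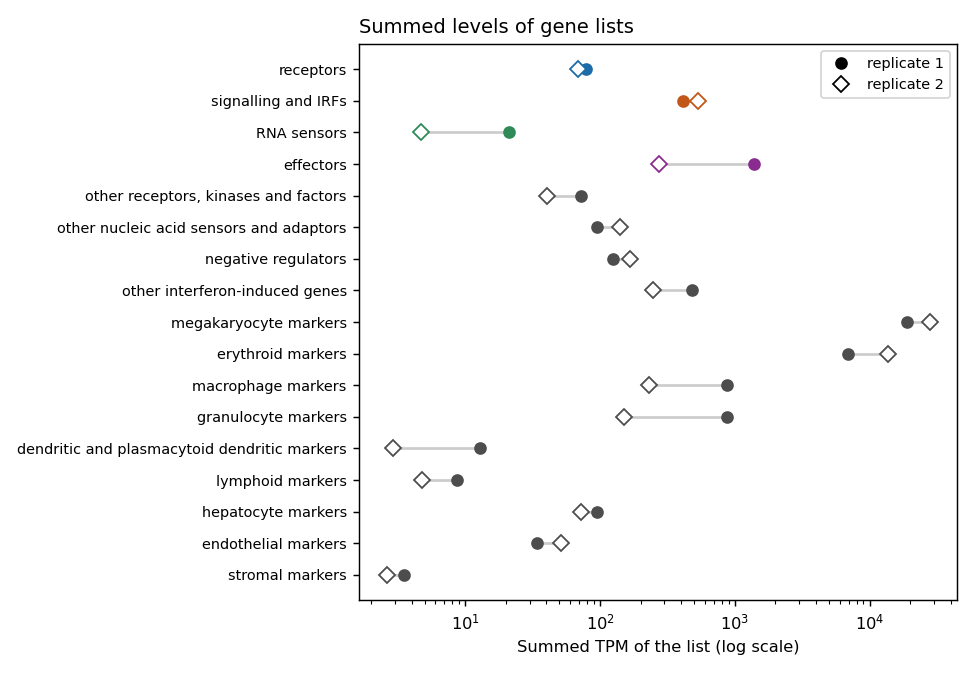
Summed TPM (log scale) of each role of the members, of the other pathway lists and of the cell type marker lists, in replicate 1 (filled circles) and replicate 2 (open diamonds). Effectors (1398 and 275 TPM) lie to the left in replicate 2, as do macrophage and granulocyte markers, while megakaryocyte markers lie to the right.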

How the data were processed

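Polyadenylated RNA was sequenced in 2 megakaryocyte libraries. The authors deposited, per the file headers, expected counts (estimated fragments per gene or transcript, which need not be whole) and TPM (scaled to effective length and depth), also as posterior means. The file lists give mm10 and GENCODE M4. Which aligner or quantifier made them is not given in the sources used here.

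Of the rows, 43346 Ensembl genes were kept. Numeric identifiers (26248, with 15 and 0 counts) and 97 control rows were left out. Symbols, transcript types and positions came from GENCODE M21 on GRCm38, the assembly of mm10, whose transcript models can differ from those used for counting. Promoter sequences and older symbols came from RefSeq (GRCm38.p6).

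TMM factors (1.16 and 0.859) came from edgeR 4.0.16 in R 4.3.3 on rounded expected counts of genes at a mean count of 10 or more. Median ratios used a prior count of 0.5 in replicate 2 and 12.5 in replicate 1. Counts past 2-fold used a mean count of at least 100 and no prior, with a count of 0 in replicate 2 set at the floor of 3 counts. The ratio step was run on data simulated from replicate 1, with counting error only and some genes changed by a known fold. The simulation held no GC or length trend between the libraries, so it does not check the ratios of the real pair. Reads carried no molecular identifiers and may repeat a molecule, so intervals and floors cover counting error only. Alternatives were DESeq2 1.42.0 size factors, total counts, other minima, GC and length trends in 20 bins, posterior means, and transcript tables. Python 3.11.15, numpy 2.4.6, pandas 2.3.3, scipy 1.17.1 and matplotlib 3.10.9 were used.

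The members and the lists were chosen with earlier results of these data known. All members are named. From the list of other receptors, kinases and factors, 1 gene is not reported here. Of each other pathway list the 3 genes with the highest mean TPM are named, and of the marker lists beside a result the 2 highest and those at 0. Of the lymphoid, hepatocyte, endothelial and stromal lists only sums are given. Ifnab and the overlapping genes were named after their values were seen.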

Additional observations from a re-analysis of the deposited data

How the results depend on the processing

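The number of members detected by mean TPM was 29. It was 18 at a threshold of 5 TPM, and lay between 22 and 32 under the other alternatives, 23 from replicate 2 alone and 30 from replicate 1 alone. The median of the signalling genes and IRFs, 61.7 TPM, was 26.9 TPM and 46.4 TPM from replicate 1 alone and replicate 2 alone, and the cause was not tested. It was 8.59 TPM without transcripts typed as non-coding, a choice made after seeing the data. The medians of the receptors, sensors and effectors moved by less than the spread between the libraries. The median log2 ratio kept its sign, from -1.56 with total counts to -0.58 with a floor of 3 counts at 0. Members at least 2-fold lower numbered 10 to 14 and those higher 2 or 3 under other scalings, minima and trends, and at a 4-fold threshold 8 were lower and 1 higher, where 16.4% and 2.16% of all genes were. With total counts 43.5% of all genes were lower and 7.31% higher. The same leading transcript was found in 4 of 4 members with a gene count of at least 100 in each library (72.3% of all such genes) and in 13 of 21 by posterior means (56.9%). No paired analysis was possible because the samples form 1 group.

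Depth limits the members most in replicate 2, where 10 had 0 counts and 5 had 1 to 3. Of the 10, 6 would have been read with over 3 counts at the scaled level of replicate 1, and 2 would not. Levels in TPM rest on the authors' split between transcripts.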

Other observations

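The authors' posterior mean TPM was above 0 for members with 0 counts in replicate 2. In that library it was 6.73 for Ifi27, 3.43 for Oasl2, 2.71 for Ifi44 and 1.69 for Mx1, all at 0 counts there, and 0.17 for Irf4. For 13 of the 37 members the mean over both libraries moved by more than the spread between them.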
